A study of Mus musculus with 6 samples.

Results

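Potassium channel genes were taken as all protein-coding genes of the mouse genome GRCm38 whose GENCODE symbol starts with Kcn. The rule found 94 genes with 201 transcript starts among 21827 protein-coding genes on 19 autosomes, X and Y. Within the family, 11 genes were listed as muscle-active and 29 as neuronal from textbook knowledge of where the channels work, and the other 54 stayed in neither list. Each gene was described by the Maf peaks and H3K27ac regions that lay within 1, 10 and 50 kb of its transcript starts, which asks where Maf and active chromatin stood around potassium channel genes of adult muscle. Maf, a transcription factor with a basic leucine zipper, is most abundant in fast myofibers. H3K27ac, the acetylated lysine of histone H3, marks promoters and enhancers in use. ChIP-seq was made on nuclei purified from gastrocnemius and quadriceps of wild-type mice aged 2 months, with no treatment. The series holds 2 Maf, 2 H3K27ac and 2 Input samples, which the labels call biological replicates.

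The 4 peak lists differed in size. They gave positions without read counts, and sequencing depth is therefore unknown. Maf replicate 1 had 74 peaks of 181 bp, Maf replicate 2 had 5467 peaks of 281 bp, and the H3K27ac replicates had 44887 and 44987 regions. Every Maf peak near a Kcn gene came from replicate 2. The lists of a target were merged, which gave 5486 Maf peaks and 52540 H3K27ac regions. The labelled tissue was checked against marker genes. H3K27ac lay within 1 kb of a start at 5 of 5 fast myofiber markers in both replicates and at 0 of 3 hepatocyte markers. It also lay at 5 of 5 markers of vascular smooth muscle and pericytes and at 3 of 3 endothelial markers, which are other cells of whole muscle. It lay at none of the 5 neuron markers in either replicate, and at 1 and 2 of 3 Schwann cell markers in replicates 1 and 2. A region marked in few nuclei and a region marked weakly in many cannot be told apart in such samples.

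Potassium channels let potassium leave the cell and so hold or restore the negative membrane potential. The pore-forming subunits fall into voltage-gated channels, inward rectifiers, two-pore domain leak channels and channels opened by calcium or sodium, and accessory subunits change their gating. In skeletal muscle, inward rectifiers set the resting potential, voltage-gated channels repolarize the fiber after an action potential, ATP-sensitive channels couple excitability to metabolism, and loss of Kcnj2 function causes a form of periodic paralysis.

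H3K27ac was found at a smaller share of Kcn genes than of all protein-coding genes, and the family was uneven. Of the 94 Kcn genes, 38 had an H3K27ac region within 1 kb of a start (40.4%, 95% Clopper-Pearson interval 30.4 to 51.0), beside 58.3% of all protein-coding genes. Muscle-active members were marked in 9 of 11 cases (81.8%, 48.2 to 97.7), against 8 of 29 neuronal members (27.6%, 12.7 to 47.2). The other members had the mark at 21 of 54 genes (38.9%, 25.9 to 53.1). The intervals cover counting over genes only, and genes are not replicates. The lists were drawn up with earlier results of these data known, so the shares are descriptions and were not tested. Counting only regions that held no start of another gene, 36 Kcn genes had the mark (38.3%, 28.5 to 48.9), beside 47.1% of all genes, a share inside that interval, with 8 of 11 muscle-active and 8 of 29 neuronal members. Where the centre of the region had to lie within 1 kb, 24 Kcn genes counted, with 3 of 11 muscle-active and 6 of 29 neuronal members (48.9% of all genes).

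The difference between the lists became smaller with distance. Within 10 kb, 10 of 11 muscle-active genes and 12 of 29 neuronal genes had H3K27ac, while 49 of 94 Kcn genes (52.1%) did so beside 65.6% of all genes. Within 50 kb the counts were 11 of 11 and 18 of 29, and the family as a whole, with 71 of 94 (75.5%), stood close to the 78.4% of all genes. The replicates gave nearly the same picture. Within 1 kb, replicate 1 marked 35 Kcn genes (beside 56.6% of all genes) and replicate 2 marked 36 (beside 56.9%), of which 33 were marked in both, or 35.1% beside 55.3% of all genes. Kcnab1 and Kcnd1 were marked in replicate 1 only, and Kcna1, Kcnh2 and Kcnk1 in replicate 2 only. All 9 marked muscle-active genes were marked in both replicates, and so were 7 of the 8 neuronal ones, Kcna1 being the exception.

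**Figure D1:**
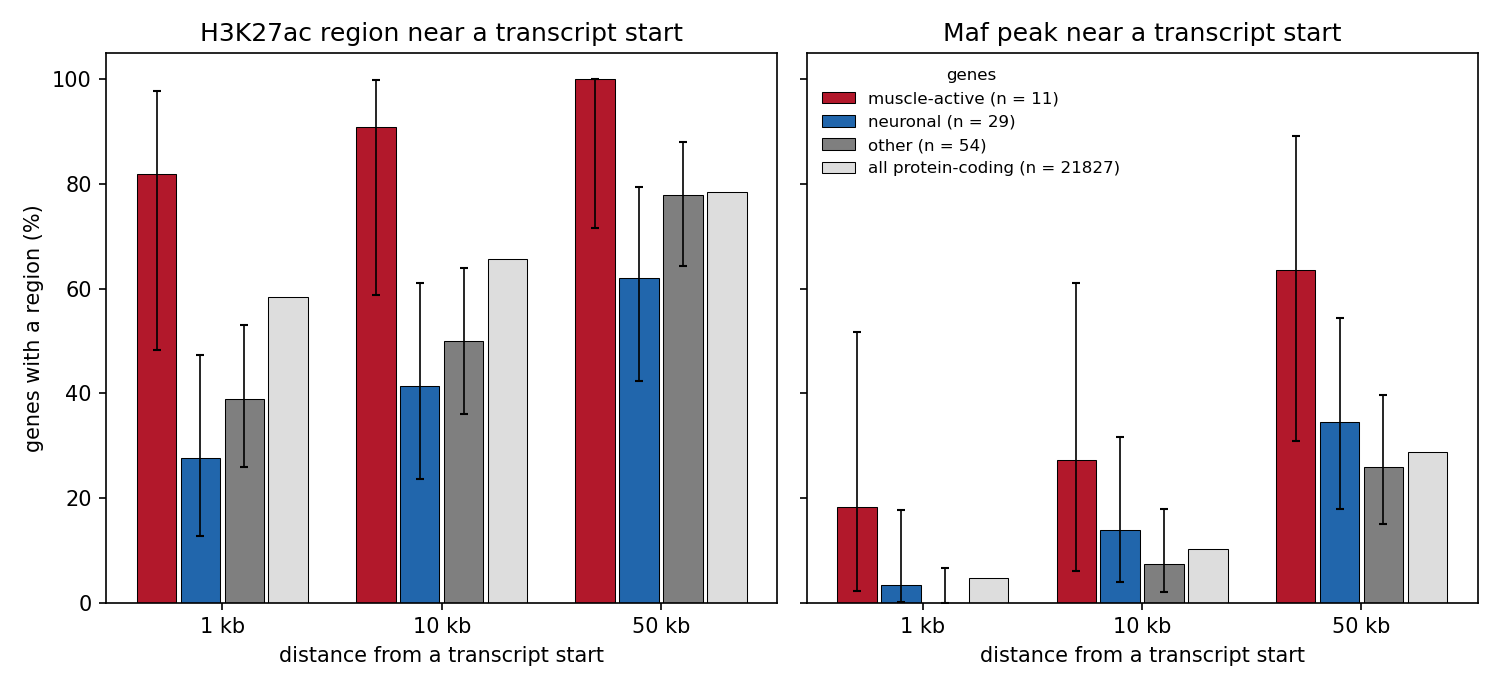
Share of genes with a Maf peak or an H3K27ac region within 1, 10 and 50 kb of a transcript start, in percent. Bars are for muscle-active, neuronal and other Kcn genes, with 95% Clopper-Pearson intervals, and for all protein-coding genes, without intervals. H3K27ac within 1 kb stood at 81.8% of muscle-active, 27.6% of neuronal and 38.9% of other Kcn genes, against 58.3% of all genes, and the intervals for Maf overlapped between the lists.

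The inward rectifiers of muscle lay in long H3K27ac regions. Kcnj2, which encodes the strong inward rectifier that holds the resting potential, had a region of 6810 bp in replicate 1 and of 6492 bp in replicate 2. Kcnj12, a close relative of Kcnj2, had a region at each of its 2 starts. At the first start the region measured 5087 and 5111 bp in replicates 1 and 2. At the second start the merged region measured 10059 bp, but it was called as 2 pieces in replicate 1, the longer of 4441 bp, so its length rests on replicate 2. Kcnj11, the pore subunit of the ATP-sensitive channel, had regions of 5256 and 5936 bp in replicates 1 and 2, and 74.3% of the gene lay under H3K27ac.

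Voltage-gated genes of the muscle-active list were marked as well. Kcna7, a Shaker-related channel gene expressed in skeletal muscle and heart, lay wholly inside a merged region of 11375 bp (11232 bp in replicate 1, 11257 bp in replicate 2), which also held a start of Ntf5. Kcnc4, a fast-inactivating channel gene, had a merged region of 6786 bp (6244 and 6726 bp). These lengths differed little between replicates. Kcna5, a delayed rectifier of heart and vascular smooth muscle, had one of 4948 bp (4057 and 4672 bp). Kcnq5, which encodes a slowly activating channel of the M-current family, had a shorter region of 1410 bp (1015 and 1410 bp). Kcnma1, the pore of the large-conductance channel opened by calcium and voltage, had a region of 3245 bp (2967 and 3229 bp) over the upstream cluster of its 8 annotated starts, and 30 H3K27ac regions lay within this long gene.

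Muscle-active genes without a mark at the start were Kcnn3 and Kcne3. Kcnn3 encodes a small-conductance calcium-activated channel that is known from denervated muscle, and its nearest H3K27ac region lay 1923 bp away in replicate 1 and 1137 bp away in replicate 2. Kcne3, an accessory subunit that assembles with the Kcnc4 channel, was 16062 and 16099 bp from H3K27ac.

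Most neuronal genes had no H3K27ac at their starts, and Kcnc1 stood apart from them. Kcnc1 encodes a channel of fast-spiking neurons, and its H3K27ac region was the longest of any Kcn gene, with 26910 bp in replicate 1 and 26637 bp in replicate 2. Merged, it measured 26915 bp, longer than that of 99.6% of all genes marked within 1 kb. Counted along transcription from the first Kcnc1 start, it reached from position -740 to position 26174 and held no start of another protein-coding gene. A separate region of 9808 bp upstream of Kcnc1 lay nearer to Myod1, the myogenic regulator.

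Kcnf1, a silent subunit that modifies other voltage-gated channels, came next with 3864 bp (3372 and 3864 bp in replicates 1 and 2). Kcna2, an axonal channel gene, had 2656 bp (2508 and 2348 bp). Both replicates marked these genes. Shorter regions stood at Kcnt2, a sodium-activated channel gene (1538 bp), Kcnn1, a small-conductance channel gene (1420 bp), Kcnc2, another channel gene of fast-spiking neurons (922 bp), and Kcna1, an axonal channel gene (501 bp). The other 21 neuronal genes were unmarked within 1 kb, among them Kcnq3, an M-current subunit of neurons, with H3K27ac 32822 bp away, and Kcnd2, an A-type channel gene, at 553479 bp. The neuron markers without H3K27ac, given above, were likewise unmarked within 1 kb, and a part of Schwann cell nuclei in the marked neuronal genes was not tested.

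Among the members of neither list, Kcnj8, Kcng4 and Kcne4 had the longest regions. Kcnj8 encodes the pore of the ATP-sensitive channel of vascular smooth muscle and had 8194 bp of H3K27ac (5710 and 8194 bp in replicates 1 and 2). Kcng4, a silent subunit that modifies other voltage-gated channels, had 7318 bp (6077 and 7318 bp). Kcne4, an accessory subunit of voltage-gated channels, had 5803 bp (5329 and 5803 bp). The vascular smooth muscle and pericyte markers were all marked, with merged regions of 3852 to 19482 bp. The part of these cells in the mark at Kcnj8, Kcne4, Kcna5 and Kcnma1 was not tested.

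**Figure D2:**
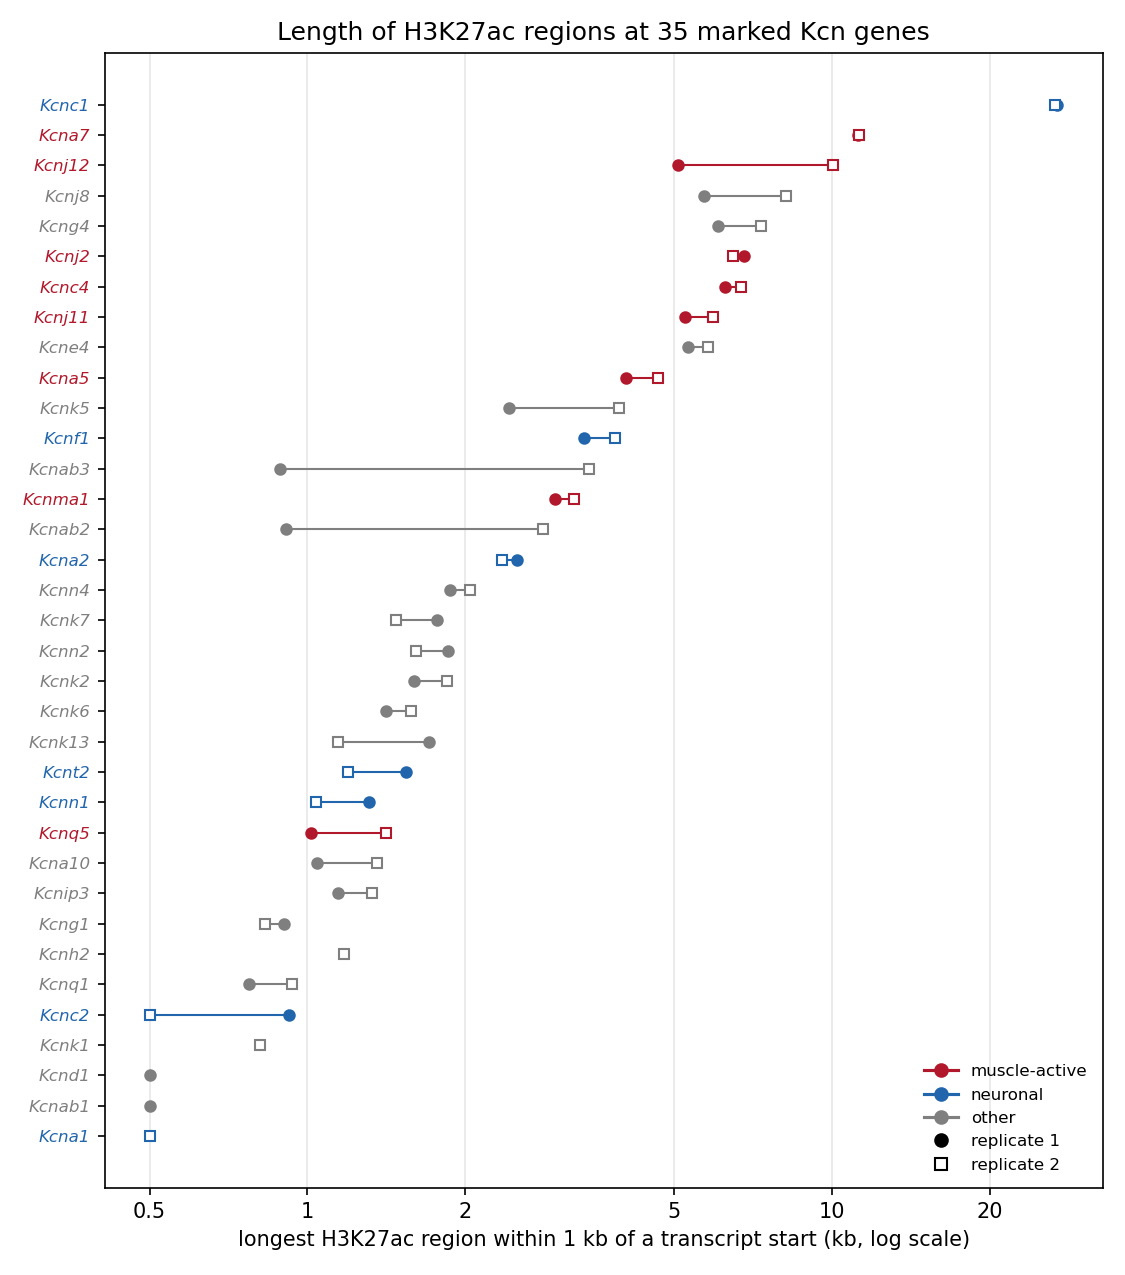
Length in kb, on a log axis, of the longest H3K27ac region within 1 kb of a start of 35 marked Kcn genes, with 1 point per replicate. Kcnc1 is at the far end with 26910 and 26637 bp, followed by Kcna7, and the genes at the short end are marked in 1 replicate only or with regions near 501 bp.

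Of the 10 Kcn genes with the longest regions, 6 were muscle-active (Kcna7, Kcnj12, Kcnj2, Kcnc4, Kcnj11 and Kcna5), 1 was neuronal (Kcnc1) and 3 were in neither list (Kcnj8, Kcng4 and Kcne4). Among marked genes, the median longest region was 5936 bp in muscle-active members (n = 9), 2097 bp in neuronal members (n = 8), 1844 bp in the others (n = 21) and 2219 bp in all protein-coding genes (n = 12735). In each replicate alone the muscle-active median was also the highest, with 5087 bp in replicate 1 and 5936 bp in replicate 2, against neuronal medians of 2508 and 1771 bp. Regions of at least 5000 bp stood at 9 Kcn genes (9.57%, beside 8.96% of all genes), of which 5 were muscle-active and 1 neuronal. The family as a whole was therefore close to all genes in this measure, and its muscle-active members carried 5 of the 9 long regions.

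Over a wider window, H3K27ac cover varied within each list. The median share of bases within 50 kb of a start under H3K27ac was 12.7% in muscle-active members (10.9% in replicate 1 and 12.3% in replicate 2), 0.985% in neuronal members (0.809% and 0.894%) and 4.68% in the others, beside 5.48% in all protein-coding genes. Each list held genes with more than 20% of this window covered, and the share of all genes above that cut is not given here. In the neuronal list these were 5 genes. Kcnc1 had 39.8%, Kcnh4, an ether-a-go-go-like channel gene, 35.0%, Kcnj9, a subunit of G protein-gated rectifiers, 31.0%, Kcnk4, a mechanosensitive leak channel gene, 26.6%, and Kcnn1 25.8%. Of these 5 genes, Kcnh4, Kcnj9 and Kcnk4 had no mark at their own starts, with the nearest region 1684, 14230 and 5987 bp away. Among the muscle-active genes, Kcna7 (39.6%) and Kcnj12 (22.1%) were highest, and Kcnk7 (39.7%), a two-pore domain subunit gene, and Kcng4 (37.1%) led the others.

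**Figure D3:**
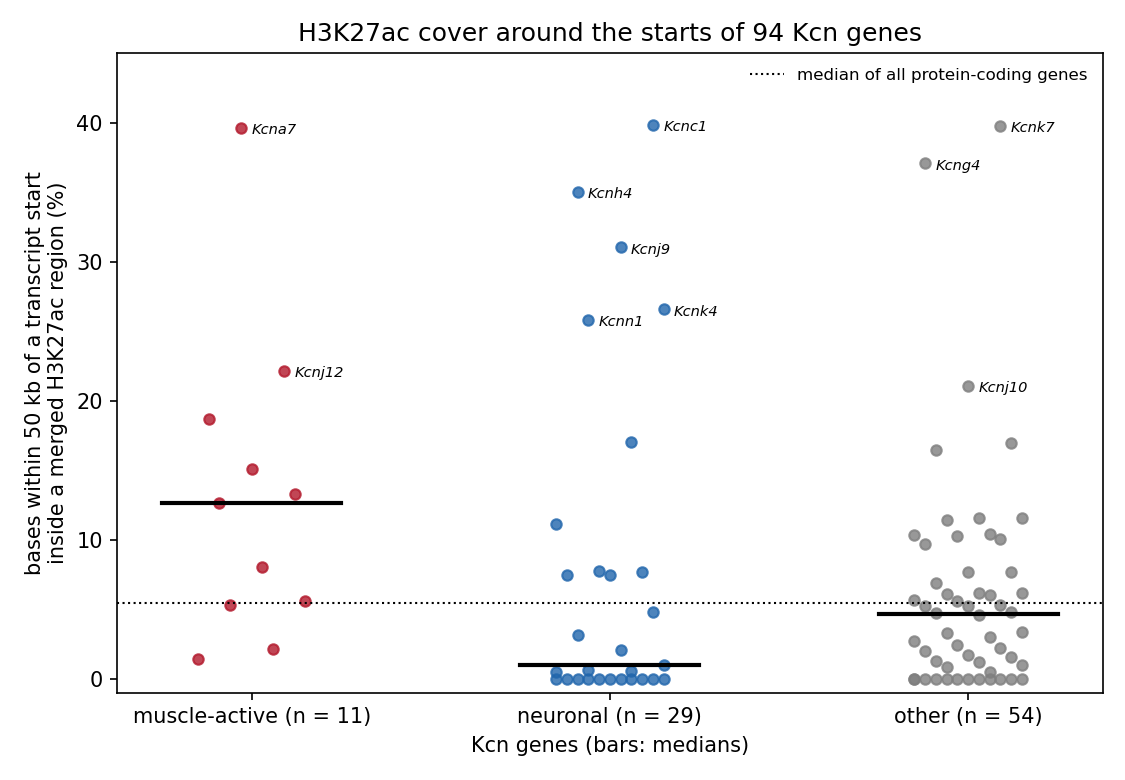
Percent of bases within 50 kb of a transcript start that lay in a merged H3K27ac region, with 1 point per Kcn gene, bars for list medians and a dotted line for the median of all protein-coding genes. The medians were 12.7% for muscle-active, 0.985% for neuronal and 4.68% for other members, and Kcna7, Kcnc1 and Kcnk7 reached 39.6%, 39.8% and 39.7%.

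By channel class, 18 of 40 voltage-gated genes, 4 of 15 inward rectifier genes, 6 of 14 two-pore domain genes, 5 of 8 genes of calcium- or sodium-activated channels and 5 of 16 accessory subunit genes had H3K27ac within 1 kb, beside the 58.3% of all genes. The calcium- or sodium-activated channels, with 62.5%, were near that share. The inward rectifiers with the mark were Kcnj2, Kcnj8, Kcnj11 and Kcnj12. Starts in CpG-rich sequence are often active in many tissues. The ratio of observed to expected CpG within 500 bp of a start was therefore compared as well. Each gene was given the highest ratio over its starts, which need not belong to the start with H3K27ac. The median ratio was 0.581 in muscle-active, 0.681 in neuronal and 0.615 in all Kcn genes, beside 0.606 in all protein-coding genes. Of genes with a ratio of at least 0.6, H3K27ac within 1 kb was found at 5 of 5 muscle-active members, at 4 of 18 neuronal members (22.2%), at 22 of 48 Kcn genes (45.8%) and at 86.3% of all protein-coding genes. Below that ratio the shares were 4 of 6, 4 of 11 (36.4%) and 16 of 46 (34.8%), beside 29.7% of all genes. The CpG-poor Kcn genes were thus marked about as often as CpG-poor genes in general, and the CpG-rich ones less often, apart from the 5 muscle-active members.

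Maf peaks near Kcn genes were about as frequent as near other genes. Within 1 kb of a start, 3 of 94 Kcn genes had a Maf peak (3.19%, 0.663 to 9.04), beside 4.71% of all protein-coding genes. Within 10 kb, 11 genes did (11.7%, 5.99 to 19.97), beside 10.2%, and within 50 kb 31 genes (33.0%, 23.6 to 43.4), beside 28.8%. For the whole family, all backgrounds lay inside the intervals. Muscle-active members had a peak within 10 kb in 3 of 11 cases (27.3%, 6.02 to 60.97), against 4 of 29 neuronal members (13.8%, 3.89 to 31.7), and 4 of 54 others (7.41%, 2.06 to 17.9). Within 50 kb the counts were 7 of 11 (63.6%, 30.8 to 89.1), 10 of 29 (34.5%, 17.9 to 54.3) and 14 of 54 (25.9%, 15.0 to 39.7). The muscle-active interval at 50 kb lay above the 28.8% of all genes, in a list chosen with earlier results known. Each of these intervals is wide, and the difference between muscle-active and neuronal members was not tested. Replicate 1 had no Maf peak within 50 kb of any Kcn gene, beside 0.564% of all genes within that distance, so the Maf values rest on 1 sample and have no replicate check. With the first 50% of the list, 6 Kcn genes had Maf within 10 kb (5.92% of all genes).

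The peaks within 10 kb of muscle-active genes lay at Kcnma1, Kcnj12 and Kcnj2. At Kcnma1 the peak covered a start, with its centre 126 bp downstream in an untranslated exon, and stood at position 4713 of 5467 in the list. At Kcnj12 the peak lay 248 bp inside the gene from its first start, in an intron, at position 1198. At Kcnj2 it lay 2549 bp downstream in an intron, at position 3530. All of them were inside the H3K27ac region of the start, which was called in both replicates. The list is not stated to be sorted by strength, so the position is an order only.

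Among the neuronal genes with a peak within 10 kb were Kcnj9, Kcnh1 and Kcns1. At Kcnj9, a subunit gene of G protein-gated rectifiers, the peak lay 4391 bp upstream of a start, at position 2216. The same peak was 7221 bp from Kcnj10, a rectifier gene of glia that is in neither list, and it had no H3K27ac. At Kcnh1, an ether-a-go-go channel gene, a peak without H3K27ac lay 4948 bp upstream, at position 4166. Kcns1, a silent subunit gene, had 2 peaks, 9064 bp upstream and 9388 bp downstream, of which the second lay in an H3K27ac region of 501 bp called in 1 replicate. The first was nearer to a start of Wfdc5.

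Of the other members, Kcnab3, Kcnj10 and Kcng2 were among those with a Maf peak within 10 kb. At Kcnab3, which encodes a cytoplasmic beta subunit of voltage-gated channels, it lay 2781 bp upstream, but only 298 bp from a start of Cntrob, in a region shared by Kcnab3, Cntrob and Trappc1. At Kcng2, another silent subunit gene, it lay 8728 bp upstream, at position 937, in an H3K27ac region of 2745 bp that did not reach the start. Just outside 10 kb lay peaks 12036 bp from Kcng4 and 12277 bp from Kcnq1. The peak near Kcnq1 was only 55 bp from a start of Trpm5, had no H3K27ac and stood at position 5093. In all, 11 peaks lay within 10 kb of the 11 genes, and 9 of them had a Kcn start as the nearest one of any protein-coding gene.

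Maf sites were looked for in the 200 bp around each peak centre, on both strands. TGCTGA is the core that large Maf factors recognize, and TGCTGAC is the same core with 1 more base, so each TGCTGAC also counts as a TGCTGA. Of the 11 peaks, 5 held TGCTGA (45.5%, beside 46.2% of all Maf peaks) and 1 held TGCTGAC (9.09%, beside 20.9%). The sequences at 2 of these cores are shown, one of a muscle-active gene that lies close to its start and one of a neuronal gene that lies near the limit of 10 kb. They are given on the strand that holds the site, with the site in capitals and the flanking bases in lower case, from GRCm38 at chr11:61022995-61023045 (Kcnj12, plus strand) and chr2:164161644-164161693 (Kcns1, minus strand).
Kcnj12: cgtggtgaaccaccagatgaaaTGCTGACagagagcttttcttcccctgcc
Kcns1: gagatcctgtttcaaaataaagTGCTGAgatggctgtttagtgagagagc

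The Kcnj12 site was the only TGCTGAC among the 11 peaks. No TGCTGA was found in this window of the Kcnj2, Kcnma1, Kcnj9, Kcnh1 and Kcnab3 peaks, which says only that these letters were not there. Other motifs searched on both strands were CAGCTG, an E-box of myogenic factors, in 0 of the 11 peaks (beside 19.5% of all Maf peaks), TGANTCA, the AP-1 site, in 0 (beside 12.4%), and the Mef2 motif in 0 (beside 5.69%). With 11 peaks, these shares are too coarse to tell from those of all Maf peaks.

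Farther from the starts, Maf peaks with TGCTGAC stood near Kcnj11, Kcnc1, Kcng4, Kcnh4 and Kcnip2. Of all Maf peaks, 20.9% held TGCTGAC, and the share among peaks within 50 kb of Kcn genes is not given here. Kcnh4 and Kcnip2 had no H3K27ac within 1 kb of a start, and their sites are not shown. The peak 15871 bp upstream of Kcnj11 lay at position 267, in an H3K27ac region of 1966 bp in an intron of Abcc8, the gene of the sulfonylurea receptor that pairs with the Kcnj11 pore. It held 2 TGCTGAC sites. A second peak lay 31172 bp downstream of Kcnj11 in an intron of Nomo1, at position 4415. The Kcnc1 peak lay in an intron, 16294 bp downstream of a start, at position 1676, inside the long H3K27ac region. A pair of Kcng4 peaks, 12036 and 16126 bp downstream of a start, stood at positions 211 and 182, nearer than any other peak within 50 kb of a Kcn gene to the top of the list. Both lay in an H3K27ac region of 11177 bp, and both were nearer to a start of Adad2 than to Kcng4.

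The sites near Kcnj11, Kcnc1 and Kcng4 are shown because they carry TGCTGAC within 50 kb of a Kcn gene with a long H3K27ac region. They are again given with the site in capitals and on the strand that holds it. The Kcnj11 sites were at chr7:46116171-46116221 (site 1) and chr7:46116287-46116337 (site 2), both on the minus strand. The Kcnc1 site was at chr7:46414057-46414107 on the minus strand. The Kcng4 sites, all on the plus strand, were at chr8:119619071-119619121 (site 1, farther peak), chr8:119623133-119623183 (site 2) and chr8:119623180-119623230 (site 3, same peak as site 2).
Kcnj11 site 1: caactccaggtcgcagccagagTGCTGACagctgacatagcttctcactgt
Kcnj11 site 2: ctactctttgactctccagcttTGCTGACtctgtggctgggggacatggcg
Kcnc1: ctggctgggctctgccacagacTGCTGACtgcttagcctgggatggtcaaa
Kcng4 site 1: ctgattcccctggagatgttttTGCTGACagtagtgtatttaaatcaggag
Kcng4 site 2: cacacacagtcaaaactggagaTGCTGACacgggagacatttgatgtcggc
Kcng4 site 3: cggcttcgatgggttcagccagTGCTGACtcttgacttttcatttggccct

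**Figure D4:**
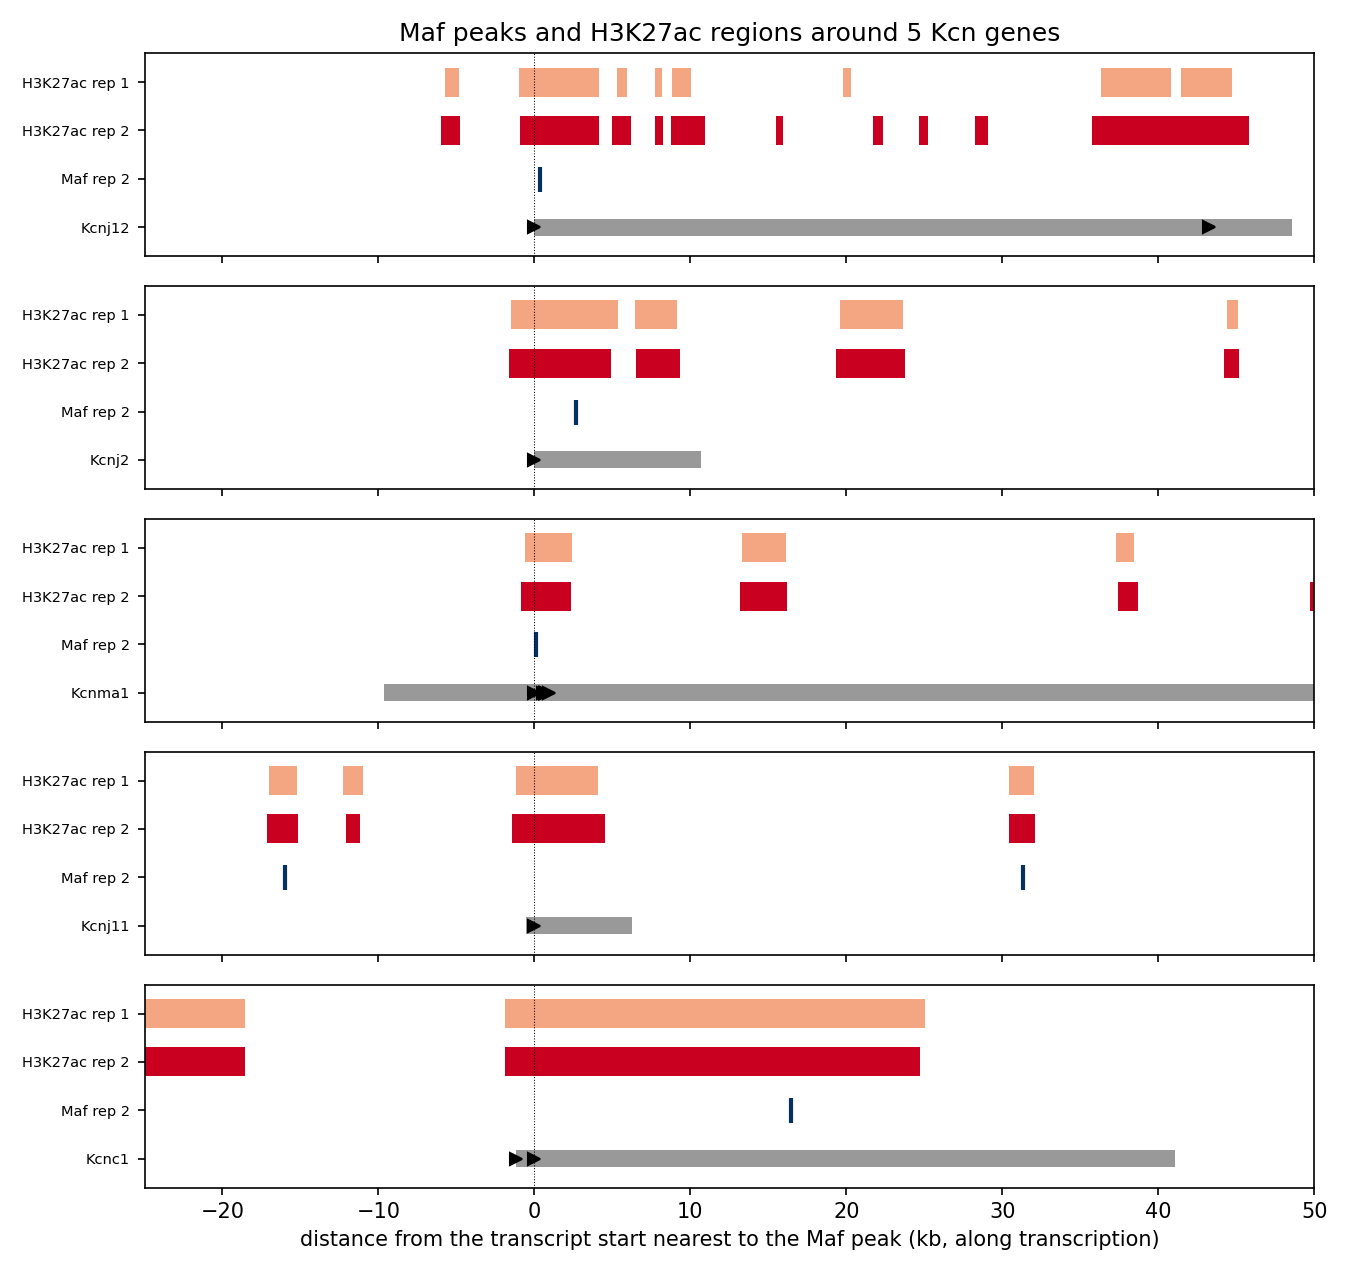
Maf peaks of replicate 2 (ticks) and H3K27ac regions of both replicates (bars) around Kcnj12, Kcnj2, Kcnma1, Kcnj11 and Kcnc1, by distance in kb from the start nearest to the Maf peak, along the direction of transcription, with gene bodies in grey and starts as arrowheads. The peaks of Kcnj12, Kcnj2 and Kcnma1 lie in the H3K27ac region of the start, that of Kcnj11 lies 15871 bp upstream in a region of its own, and that of Kcnc1 lies inside the region of 26915 bp.

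The remaining muscle-active genes had their nearest Maf peak farther away. Kcna7 had one 21090 bp away in an intron of Ruvbl2, at position 765, nearest to a start of Lhb. For Kcnn3 it was an unmarked peak 33101 bp upstream. The genes Kcne3 (61292 bp), Kcnc4 (102385 bp), Kcnq5 (296372 bp) and Kcna5 (425922 bp) had none within 50 kb. Kcnc4, Kcnq5 and Kcna5 thus had H3K27ac at their starts and no Maf peak in the window. The median distance to the nearest Maf peak was 21090 bp in muscle-active, 154431 bp in neuronal and 137106 bp in other Kcn genes, beside 124616 bp in all protein-coding genes.

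Some long Kcn genes held Maf peaks far from any start. In all, 23 peaks lay within 15 Kcn genes (16.0%), beside 11.9% of all protein-coding genes that held a peak. Kcn genes were longer than genes in general, with a median length of 30830 bp beside 17385 bp, and the part of gene length in these shares was not tested. Kcnma1 held 5 of the peaks and Kcnq5 held 3. In Kcnma1, 4 of the 5 peaks overlapped H3K27ac, and all stood in the later part of the list, at positions 3568 to 5251. Of the 3 peaks in introns of Kcnq5, those at positions 1025 and 2416 were marked and that at 4890 was not. The percent of Maf peaks with H3K27ac was 72.7% for those within 10 kb of a Kcn start (8 of 11) and 78.0% for those within 50 kb (32 of 41), beside 69.1% of all Maf peaks (3793 of 5486).

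Maf within 10 kb and H3K27ac within 1 kb were found together at 6 of 94 Kcn genes (6.38%), beside 9.09% of all protein-coding genes. These were 3 of 11 muscle-active genes (Kcnj2, Kcnj12 and Kcnma1), 1 of 29 neuronal genes and 2 of 54 others, among them Kcnab3. The rectifiers Kcnj9 and Kcnj10, Kcnh1, Kcns1 and Kcng2 had the Maf peak without the mark at their starts.

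A list of 15 partner genes held auxiliary subunits of potassium channels and other ion transporters of the fiber membrane. H3K27ac lay within 1 kb of 10 of 15 (66.7%, 38.4 to 88.2, near the 58.3% of all genes), and Maf within 10 kb of 5 of 15 (33.3%, 11.8 to 61.6, beside the 10.2% of all genes). The Maf count rests on replicate 2, since replicate 1 had a peak within 10 kb of 0 of 15 (beside 0.115% of all genes). Like the other lists, this one was chosen with earlier results of these data known, and its shares were not tested. Among the genes with Maf were Abcc9, Lrrc38, Clcn1 and Scn4a. Abcc9, the sulfonylurea receptor that pairs with Kcnj11 in muscle and with Kcnj8 in vessels, had a peak over a start. Lrrc38, an auxiliary subunit of the Kcnma1 channel, had one at 91 bp, Clcn1, the chloride channel of the fiber membrane, at 1799 bp, and Scn4a, the sodium channel of the muscle action potential, at 8192 bp. The merged H3K27ac regions of these 4 genes measured 8046 to 20439 bp. The longest, at Scn4a, also held a start of Prr29. The region of 8784 bp at Abcc9 was called as 3 pieces in replicate 2, the longest of 5480 bp. The part of vascular cells in this region and in the Maf peak at Abcc9 was not tested. For the ATP-sensitive channel, Abcc9 and Kcnj11 were marked at their starts, while Abcc8, the other receptor gene, lay 16858 bp from H3K27ac in replicate 1 and 21672 bp in replicate 2.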

How the data were processed

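ChIP-seq peak lists of Maf and H3K27ac (2 samples each) were analysed. The 2 Input samples were not used here. Per the submitters' processing notes, bcl2fastq 2.17, FastQC, Bowtie2 2.3.2, Picard 2.10.3 and HOMER were used with the mouse build mm10 (GRCm38), and the paper also names Bowtie2. The paper gives a false discovery rate for its Maf peaks. Other caller settings and the use of the input are not given in the sources used here. The deposited lists hold positions, a name and a score that the authors left at 1 for every region, so strength could not be ranked and positions were used.

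Regions of both replicates that overlapped or touched were merged. A gene counted as having a region when any base lay within the distance of a transcript start (GENCODE M21). Shares carry Clopper-Pearson 95% intervals, with no test. Motifs were searched in 200 bp around peak centres. Counting, interval and motif procedures were tested on simulated data. The members and lists were chosen with earlier results of these data known. Named are Kcn genes with Maf within 10 kb, all muscle-active genes, the 10 with the longest H3K27ac regions, up to 10 neuronal genes marked in both replicates, and partner genes with Maf within 10 kb. Others named (such as Kcnh4, Kcnk7, Kcnq3 and Kcnd2) were chosen after their values were seen. Results of single genes that the rule names but the text does not are not reported here. Alternatives were single replicates, regions called in both, region centres, the first part of each list, the 5′ end of the gene, nearest gene only, regions with no start of another gene, and core members. Python 3.11.15, numpy 2.4.6, pandas 2.3.3, SciPy 1.17.1 and matplotlib 3.10.9 were used.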

Additional observations from a re-analysis of the deposited data

How the results depend on the processing

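Of 79 alternative values, 54 stayed within 1.5 times the main count. Maf rests on replicate 2: leaving out each replicate in turn gave ranges of 0 to 3, 0 to 11 and 0 to 31 Kcn genes with Maf within 1, 10 and 50 kb, of 0 to 3 for muscle-active and 0 to 4 for neuronal genes within 10 kb, of 0 to 7 for Maf peaks with H3K27ac and of 0 to 5 for peaks with TGCTGA. All values of 0 came without replicate 2, and Maf regions called in both replicates also gave 0 in each of these counts of genes. For H3K27ac the same ranges were 35 to 36 Kcn genes within 1 kb, 46 in both cases within 10 kb and 68 to 70 within 50 kb, 9 muscle-active in both cases, and 7 to 8 neuronal genes within 1 kb. With the first 50% of each list, Maf was within 10 kb of 6 Kcn genes (5.92% of all genes), 1 muscle-active and 2 neuronal, and within 50 kb of 20 (17.7%), while H3K27ac was within 1 kb of 23 (50.2%) and 5 neuronal, and within 10 kb of 32 (55.9%). With region centres, H3K27ac was within 1 kb of 24 Kcn genes (48.9% of all genes) and 3 muscle-active ones, since long regions have their centre farther from the start. With nearest genes only, chosen after seeing the data, Maf was within 50 kb of 15 (14.2%). Core members gave Maf within 10 kb of 2 of 12 neuronal genes, and H3K27ac within 1 kb of 5 of 5 muscle-active and 5 of 12 neuronal genes, from shorter lists. Regions with no start of another gene, also chosen after seeing the data, gave H3K27ac within 1 kb of 36 Kcn genes (47.1% of all genes). No paired analysis was possible because the results are counts over merged lists with no test over samples, and a block needs such a test. Within replicate 2 alone, 7 of 11 Maf peaks lay in H3K27ac of the same replicate. The lists give no depth, so a gene without a peak is a gene without a call.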
